A study of Mus musculus with 51 samples.

Results

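The core pluripotency factors Pou5f1, Nanog and Sox2 were followed in RNA-seq of mouse embryonic stem cells (mESCs) with or without maternal deletion of Smchd1, a gene for a chromatin protein that helps to keep genes silent. The members were picked by name, and they are 3 of the 34 genes in a table of log2 RPKM values for pluripotency and differentiation factors (RPKM is a read count scaled to transcript length and to library size). The same 3 genes are among 35591 genes in a table of read counts. Control cells (wt) carry Smchd1[fl/+] and maternally deleted cells (mat del) carry Smchd1[del/+], made with Zp3-Cre, a transgene driven by an oocyte promoter, so the deleted allele came through the egg and the paternal allele stayed intact. All cells were male mESCs of a C57BL/6/Cast F1 background, which wt and mat del lines share. Cells were sampled as 3 lines per genotype in 2i + LIF, a medium with kinase inhibitors that holds mESCs in naive pluripotency, and on day 0 and then days 1, 2, 2.5, 3 and 4 of a differentiation toward neuromesodermal progenitors. On day 0 cells were in DME medium with LIF by the labels, up to day 2 they received FGF, from day 2 also a Wnt pathway activator, and from day 3 also GDF11. The course holds 23 wt and 22 mat del libraries, 3 or 4 in each of 12 groups. By the labels replicates 1 to 3 of the course are line 1 of each genotype and replicate 4 is line 2, so by the labels p-values over the course measure mostly the spread between samples of 1 line. The study's own description of these samples differs and has technical replicates of separate lines, each from its own blastocyst; the labels were followed here, and which replicates share a line is uncertain.

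Pou5f1 encodes OCT4, a POU domain transcription factor without which the inner cell mass does not stay pluripotent. Sox2 encodes an HMG box factor that binds DNA beside OCT4 at many shared sites, and Nanog encodes a homeodomain factor that holds cells in the naive state and is typically uneven between cells. OCT4 and SOX2 act together on the regulatory regions of their own genes and of Nanog. All 3 genes go down as cells leave pluripotency, although Sox2 is used again in neural cells. The study also stained for SOX2 protein, together with T/Brachyury, during this course. In neuromesodermal differentiation FGF and Wnt signals turn on Tbra (the gene T), Nkx1-2 and Cdx genes while the pluripotency network is lost. In bulk RNA a lower level can come from fewer cells with the transcript or from less transcript per cell, and these cannot be told apart here.

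In the GRCm38 coordinates of the files, Pou5f1 lies at chr17:35506018-35510772, Nanog at chr6:122707489-122714633 and Sox2 at chr3:34650405-34652461, all on the plus strand. All 3 are protein coding; GENCODE gives Pou5f1 and Nanog up to 5 exons in a transcript and Sox2 1 exon. The 250 bases before the RefSeq start site nearest to each gene's start are shown because OCT4 and SOX2 are known to bind near these genes. Capitals mark the POU motif TTTGCAT and the SOX motif ACAANG wherever a search of both strands found them, including the 2 in a row with 1 base between.
Nanog: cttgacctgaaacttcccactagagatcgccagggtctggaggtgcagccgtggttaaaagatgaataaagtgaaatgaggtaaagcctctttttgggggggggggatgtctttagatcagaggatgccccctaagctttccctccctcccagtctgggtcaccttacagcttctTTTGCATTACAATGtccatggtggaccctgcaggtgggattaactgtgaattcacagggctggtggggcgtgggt
Sox2: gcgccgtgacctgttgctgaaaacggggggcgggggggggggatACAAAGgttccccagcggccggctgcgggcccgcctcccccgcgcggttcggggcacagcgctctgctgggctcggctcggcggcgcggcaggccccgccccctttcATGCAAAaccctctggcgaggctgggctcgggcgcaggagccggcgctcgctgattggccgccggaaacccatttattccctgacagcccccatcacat
Pou5f1: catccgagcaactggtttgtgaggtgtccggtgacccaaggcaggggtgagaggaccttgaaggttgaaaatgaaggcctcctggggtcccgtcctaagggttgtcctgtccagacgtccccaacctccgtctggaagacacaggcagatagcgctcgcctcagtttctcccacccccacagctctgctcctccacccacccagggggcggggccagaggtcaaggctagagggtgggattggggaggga
The windows come from RefSeq on GRCm38.p6 and span chr6:122707239-122707488 for Nanog, chr3:34649745-34649994 for Sox2 and chr17:35505782-35506031 for Pou5f1. The Nanog window held the POU motif from base -75 to -69 and the SOX motif from base -67 to -62, counted from the start site, which together form the composite element. Only 3 of 32851 promoter windows of this length (0.00913%) held that composite, and 2 of these 3 were the overlapping windows of Nanog. The Sox2 window, which ends 410 bases before the start the files give, held a SOX motif from base -206 to -201 and, on the minus strand, a POU motif from base -99 to -93, printed here as its reverse complement on the plus strand. Neither motif was found in the Pou5f1 window shown, while the window of another RefSeq start site of Pou5f1 held 1 SOX motif and no POU motif. The POU motif was in 4.12% of all windows and the SOX motif in 36.3%, so a SOX motif match was common.

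Of the 45 course libraries, 4 stood apart from the rest. Ctnnb1, which encodes beta-catenin and is used by all these cells, lay between 6.11 and 7.85 log2 RPKM in the other 41 course libraries, but at 4.52 in mat del day 0 replicate 3, 4.63 in wt day 2 replicate 3 and 4.77 in mat del day 2.5 replicate 3. These 3 are also the only course libraries whose labels call them a primary line. Of factors above 6 log2 RPKM in the other replicates, the median lay lower by 2.36, 1.94 and 2.26 log2 units. Of factors between 0 and 3 it lay lower by 0.80, 0.60 and 0.85. In the same order, Pou5f1 read 4.77, 4.88 and 4.42 log2 RPKM, where no other replicate of these groups read below 8.01. Some factors with a mean below 0 in the other replicates were lowered further than these medians. They included Nkx1-2 in wt day 2 replicate 3 (-3.15) and Foxd3 in mat del day 2.5 replicate 3 (-4.18). In mat del day 1 replicate 4, the 17 factors on chromosomes 9 to 19 and X lay at or below -3.90 log2 RPKM, although some of them reached 9.35 in the other replicates. The 17 factors on chromosomes 1 to 8 were read there, with a median 0.70 above the other replicates. Pou5f1, on chromosome 17, was thus at -4.63 in that library, while Nanog and Sox2, on chromosomes 6 and 3, read 4.91 and 7.50. Course results below are therefore given with all libraries, as the main value, and for the tests between days and genotypes on the members also without these 4 where the days compared hold any of them.

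**Figure D1:**
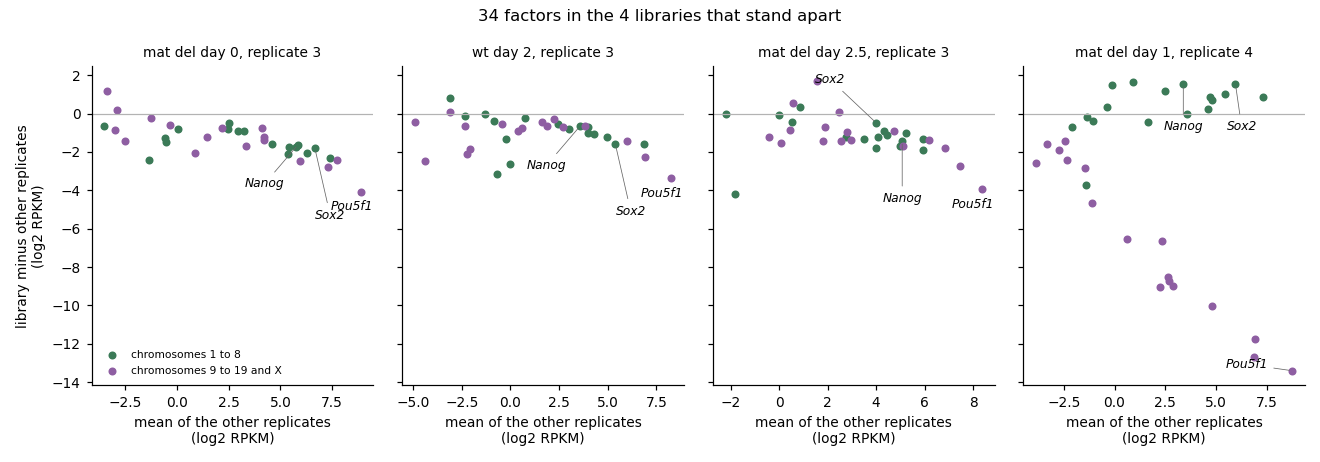
Each point is 1 of 34 factors: its log2 RPKM in a library minus the mean of the other replicates of that group (y axis) against that mean (x axis), for the 4 libraries that stand apart. In 3 libraries most factors lie lower than in the other replicates. Pou5f1 is the lowest of them or, in mat del day 2.5 replicate 3, next above Foxd3. In mat del day 1 replicate 4 the drop is on chromosomes 9 to 19 and X.

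The day labels of the log2 RPKM table held against markers. The summed RPKM of 6 mesoderm and posterior markers (Tbra, Nkx1-2, Cdx1, Cdx2, Fgf8 and Wnt3a) lay between -0.80 and 2.72 log2 units in the 22 libraries of days 0 to 2 and between 6.46 and 9.58 in the 23 libraries of days 2.5 to 4. The course columns of the count table did not separate in this way, and only 7 of 45 log2 RPKM libraries followed the count column of the same name best over the factors. The counts of the course were therefore not used, and the depth of its libraries is unknown. In each library the lowest Hox gene lay between -9.21 and -1.10 log2 RPKM. In all 45 libraries except mat del day 1 replicate 4, where Pou5f1 was at the floor, the members lay at or above -0.29.

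On the deposited scaling to library size, Pou5f1 stayed high through day 2.5 and was low on day 4. In wt cells it read 9.17, 8.48, 8.47 and 8.89 log2 RPKM on day 0 (replicates 1 to 4) and 5.45, 3.27, 4.65 and 4.95 on day 4, with no overlap. Pou5f1 fell by 4.17 log2 units over the whole course (SE 0.52, limma, adjusted p = 1.47e-05, n = 8 libraries; exact permutation p = 0.0286, the smallest that 4 against 4 can give), which left 5.54% of the day 0 level. In mat del cells it read 9.11, 8.62 and 4.77 on day 0 and 5.22, 4.81, 5.48 and 5.87 on day 4. That difference was -2.16 log2 units (SE 0.97, adjusted p = 0.0568) with all libraries. Without day 0 replicate 3, which was also the library behind the overlap, Pou5f1 fell by 3.52 (SE 0.56, adjusted p = 0.00185), to 8.70% of day 0.

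Most of that loss came after day 2.5 on the deposited scaling. Without the libraries that stand apart, the wt means were 8.75, 8.32, 8.26, 8.04, 7.23 and 4.58 log2 RPKM in order of the 6 days, and neighbouring days overlapped up to day 3, whereas day 4 lay below all libraries of day 3. The mat del means were 8.87, 8.77, 8.04, 8.36, 7.31 and 5.34, where days 3 and 4 each lay below all libraries of the day before. From day 2.5 to 4 Pou5f1 fell by 3.46 in wt cells (SE 0.58, adjusted p = 0.00122), an 11.0-fold difference. The mat del difference was -1.70 (SE 0.94, adjusted p = 0.231) with all libraries, and Pou5f1 fell by 3.02 (SE 0.61, adjusted p = 0.0118) without day 2.5 replicate 3. With each of all libraries centred on its median over the factors, the wt difference from day 2.5 to 4 was -2.45 (adjusted p = 0.0075). The centred mat del difference was -0.97 (adjusted p = 0.378), after a centred difference of -2.92 (adjusted p = 0.00572) from day 2 to 2.5. In mat del cells the timing of the loss thus differed with the scaling. Over day 2 to 2.5, 10 of 14 differentiation factors rose in mat del cells, and the factor median with them, so centring cannot date the loss. Under FGF alone, from day 0 to 2, the wt difference was -1.34 (SE 0.73, adjusted p = 0.126), or -0.49 (adjusted p = 0.253) without replicate 3 of day 2 and 0.72 (adjusted p = 0.374) with each library centred on its median over the factors. The mat del difference over the same days was 0.53 (SE 0.96, adjusted p = 0.716) and -0.83 (adjusted p = 0.261) without day 0 replicate 3. The wt call from day 2.5 to 4 was lost in 1 fit over all 12 groups (adjusted p = 0.0674), whose spread includes mat del day 1 replicate 4.

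**Figure D2:**
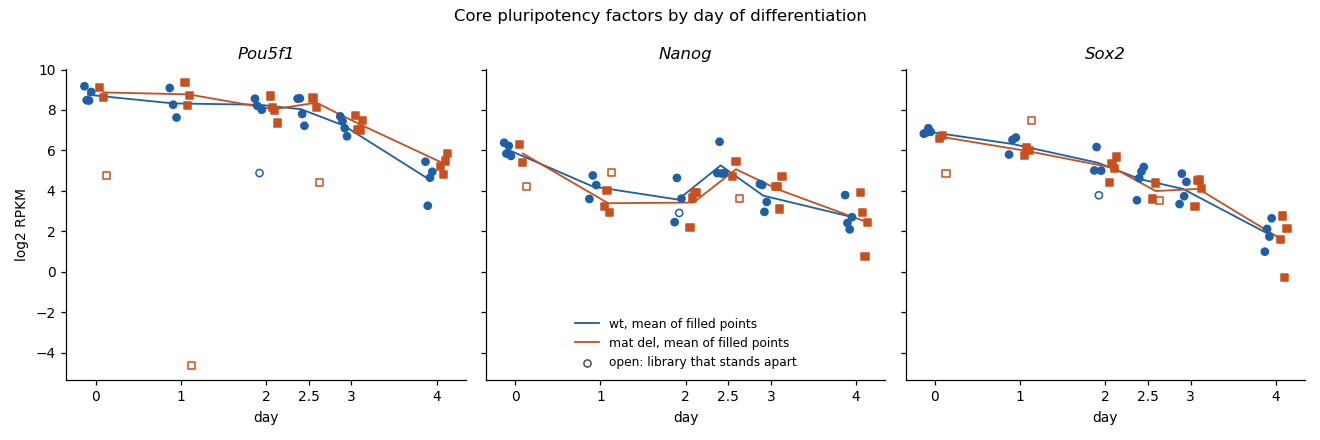
Log2 RPKM of Pou5f1, Nanog and Sox2 (y axis) by day (x axis), 1 point per library, circles for wt and squares for mat del, with lines through the means of the filled points; open points are the 4 libraries that stand apart. Pou5f1 is lowest on day 4, Nanog is lower on days 1 and 2 and higher again on day 2.5 (a rise that passed the test in wt cells on the deposited scaling and was not seen with centred libraries), and Sox2 is lower on each later day up to day 3 in wt cells and lowest on day 4 in both genotypes.

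In wt cells, on the deposited scaling to library size, Nanog fell early, rose on day 2.5 (a step of -0.04 with each library centred on its factor median) and then fell. It read 6.38, 5.84, 6.23 and 5.73 log2 RPKM on day 0, then 2.46, 4.64, 2.91 and 3.62 on day 2 and 4.88, 6.43, 4.86 and 4.88 on day 2.5. The groups of days 0 and 2, and those of days 2 and 2.5, did not overlap. Nanog fell by 2.64 from day 0 to 2 (SE 0.50, adjusted p = 0.00113), to 16.1% of day 0, and the difference was -2.47 (adjusted p = 0.00385) without day 2 replicate 3. It then rose by 1.86 from day 2 to 2.5 (SE 0.59, adjusted p = 0.0304), a 3.62-fold increase over the step at which the Wnt activator was added, and fell by 2.51 from day 2.5 to 4 (SE 0.56, adjusted p = 0.00389). All 3 changes had the smallest exact permutation p that 4 against 4 libraries can give, 0.0286.

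The rise was the least firm of the wt changes. It was 1.69 (SE 0.64, adjusted p = 0.0721) without day 2 replicate 3, and leaving out day 2 replicate 1, day 2.5 replicate 1 or day 2.5 replicate 2 also took the adjusted p above 0.05, with differences of 1.54, 1.98 and 1.47. The factor table leans toward genes that move: the median difference over its 34 factors was -1.67 from day 0 to 2 and 0.61 from day 2 to 2.5 in wt cells. Centring each library on its own median over the factors made the day 0 to 2 difference -0.58 (adjusted p = 0.291) and turned the day 2 to 2.5 difference to -0.04 (adjusted p = 0.951). On that scale the day 2.5 to 4 difference was -1.50 (adjusted p = 0.0605), so all 3 calls, and the direction of the rise, were found on the deposited scaling and not with centring. The factors that set the median moved themselves: from day 2 to 2.5, 10 of 14 differentiation factors rose in wt cells (median 4.18). Centring on them therefore cannot tell whether the scaling to library size made these changes.

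In mat del cells Nanog read 6.28, 5.42 and 4.22 log2 RPKM on day 0, then 2.21, 3.65, 3.94 and 3.90 on day 2 and 4.71, 5.44 and 3.64 on day 2.5. From day 0 to 2 the difference was -1.88 (SE 0.75, adjusted p = 0.103) with all libraries, and Nanog fell by 2.42 (SE 0.65, adjusted p = 0.0259) without day 0 replicate 3. From day 2 to 2.5 the difference was 1.17 (SE 0.64, adjusted p = 0.184), and 1.65 (SE 0.62, adjusted p = 0.0923) without day 2.5 replicate 3. Both day 2.5 libraries that remained then lay above all 4 of day 2, and the level was 58.5% of day 0, beside 58.1% in wt cells. From day 2.5 to 4 the difference was -2.08 (SE 0.85, adjusted p = 0.104), and -2.56 (adjusted p = 0.0681) without that library. Over the whole course Nanog fell by 3.29 in wt (SE 0.48, adjusted p = 3.89e-05) and by 2.79 in mat del cells (SE 0.89, adjusted p = 0.00925), the latter losing its call without mat del day 0 replicate 1, at a difference of -2.31. With centred libraries the mat del step from day 2 to 2.5 turned to -0.76 (adjusted p = 0.236), while the whole-course differences kept direction and call in both genotypes.

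Sox2 had the largest estimated drop of the 3 over the course in both genotypes. In wt cells it read 6.83, 6.88, 7.10 and 6.92 log2 RPKM on day 0, 5.01, 6.17, 3.78 and 5.0 on day 2, and 1.00, 2.12, 1.74 and 2.65 on day 4, and none of these groups overlapped. On the deposited scaling Sox2 fell by 1.94 from day 0 to 2 (SE 0.49, adjusted p = 0.00575) and by 1.54 (SE 0.39, adjusted p = 0.00823) without day 2 replicate 3. It fell by 2.70 from day 2.5 to 4 (SE 0.54, adjusted p = 0.00257) and by 5.05 from day 0 to 4 (SE 0.46, adjusted p = 1.82e-06), leaving 3.01%. From day 2 to 2.5, where Nanog rose in wt cells, the Sox2 difference was -0.41 (SE 0.58, adjusted p = 0.624), and -0.82 (adjusted p = 0.318) without day 2 replicate 3. Relative to the factor median the day 2 to 2.5 difference was -2.30 (adjusted p = 0.00182) and the day 0 to 2 difference was 0.11 (adjusted p = 0.794). The step at which Sox2 passed the test thus depended on the scaling. Over day 2 to 2.5, 10 of 14 differentiation factors rose in wt cells, and the factor median with them. The centred value for that step therefore does not show that Sox2 itself fell.

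In mat del cells Sox2 read 6.60, 6.73 and 4.84 log2 RPKM on day 0, 4.42, 5.36, 5.12 and 5.68 on day 2, 3.60, 4.39 and 3.51 on day 2.5, and 1.59, 2.76, -0.29 and 2.12 on day 4. Day 4 replicate 3 was the lowest of all 45 libraries. From day 0 to 4 Sox2 fell by 4.51 (SE 0.89, adjusted p = 0.000264), and by 5.12 (SE 0.89, adjusted p = 0.00185) without day 0 replicate 3, to 2.88% of day 0. The shorter steps were -0.91 from day 0 to 2 (adjusted p = 0.367), -1.31 from day 2 to 2.5 (adjusted p = 0.0781) and -2.29 from day 2.5 to 4 (adjusted p = 0.0782). Without the libraries that stand apart these steps were -1.52 (adjusted p = 0.0609), -1.15 (adjusted p = 0.14) and -2.45 (adjusted p = 0.0681). With centred libraries the first step turned to 0.68 (adjusted p = 0.449), and the step from day 2 to 2.5 was -3.24 (adjusted p = 0.00113). The latter is relative to a factor median that rose over this step, where 10 of 14 differentiation factors rose. It does not show a fall of Sox2 by itself.

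The rest of the factor table gives the background to these counts. In wt cells 20 of 34 factors (58.8%) passed the test from day 0 to 2, 14 (41.2%) from day 2 to 2.5, 18 (52.9%) from day 2.5 to 4 and 28 (82.4%) from day 0 to 4. In mat del cells the counts were 3 (8.82%), 10 (29.4%), 4 (11.8%) and 23 (67.6%). The members passed in 2, 1, 3 and 3 of 3 cases in wt cells and in 0, 0, 0 and 2 of 3 in mat del cells. These shares stand beside a table in which most factors moved over the course, so a call was not particular to the members. Without the libraries that stand apart the wt counts were 20 factors and 2 members from day 0 to 2 and 11 factors and 0 members from day 2 to 2.5. The mat del counts were then 11, 12, 6 and 25 factors, and 1, 0, 1 and 3 members.

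Most of the 17 other pluripotency factors also fell over the first step in wt cells, on the deposited scaling. From day 0 to 2 in wt cells 14 of the 17 fell and none rose, with a median of -2.26 log2 units, beside -1.67 over all 34 factors, and 14 fell also without day 2 replicate 3. From day 2.5 to 4, 10 of the 17 fell and 1 rose. From day 2 to 2.5, where Nanog rose in wt cells, 2 of the 17 rose and 1 fell (median 0.06), while 10 of 14 differentiation factors rose (median 4.18), the 6 mesoderm and posterior markers among them. Without day 2 replicate 3, 1 of the 17 rose and 1 fell (median -0.30), and 9 of 14 differentiation factors rose, with 5 of the 6 markers. In mat del cells no pluripotency factor and 10 of 14 differentiation factors passed the test over that step (median 5.42), but without day 2.5 replicate 3, 2 of the 17 pluripotency factors rose, and again 10 of 14 differentiation factors. Over the whole course 14 of 17 pluripotency factors fell in wt and 11 of 17 in mat del cells (12 without day 0 replicate 3), and none rose.

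Ratios between members within a library do not depend on the scaling to library size. Nanog stood below Sox2 in all 22 libraries of days 0 to 2, above it in 5 of 7 on day 2.5 and in 3 of 8 on day 3, and above it in all 8 on day 4. In wt cells the log2 ratio of Nanog to Sox2 was -2.56, -1.53, -0.87 and -1.38 on day 2 and 1.34, 1.80, -0.10 and -0.30 on day 2.5, without overlap. In mat del cells it was -2.21, -1.71, -1.18 and -1.78 on day 2 and 1.11, 1.05 and 0.13 on day 2.5, again without overlap. This step was seen first and is given as values with no test.

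Pou5f1 stayed the highest of the 3 in every library from day 2 on, and in every library of days 0 and 1 but mat del day 0 replicate 3 and mat del day 1 replicate 4. In wt cells the log2 ratio of Nanog to Pou5f1 averaged -2.71 ± 0.38 (SD, n = 4) on day 0, -4.01 ± 1.72 on day 2 (-4.69 ± 1.30 without replicate 3, n = 3), -2.78 ± 0.69 on day 2.5 and -1.83 ± 0.75 on day 4. The ratio of Sox2 to Pou5f1 averaged -1.82 ± 0.43 on day 0, -3.46 ± 1.30 on day 2.5 and -2.70 ± 1.38 on day 4. Between genotypes, 12 exact permutation tests of these ratios (2 ratios on 6 days) gave adjusted p-values of 0.971 throughout. Before adjustment the lowest p found was 0.314, where 0.0286 was the smallest that 4 against 4 or 4 against 3 libraries can give. The largest difference apart from day 1, where mat del replicate 4 sets the mean, was -1.10 for Sox2 to Pou5f1 on day 4 (mat del -3.80 ± 1.52, wt -2.70 ± 1.38, exact p = 0.314, n = 4 each). Without the libraries that stand apart the adjusted p-values ran from 0.762 to 0.971.

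**Figure D3:**
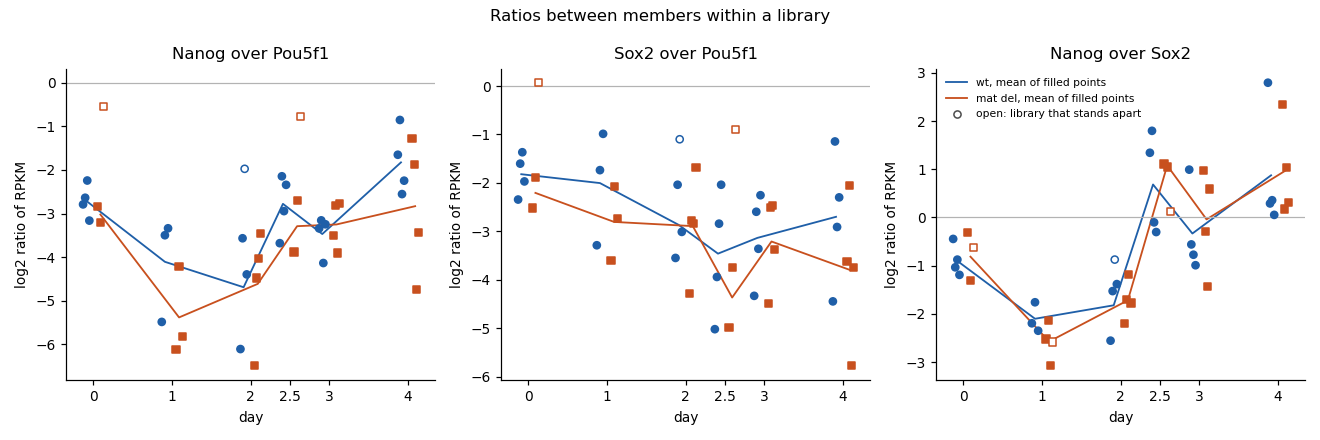
Log2 ratios of RPKM within a library (y axis) by day (x axis), circles for wt and squares for mat del, lines through the means of filled points, open points for libraries that stand apart; mat del day 1 replicate 4, where Pou5f1 was at the floor, is left out of both ratios to Pou5f1. The ratio of Nanog to Sox2 is below 0 in all libraries of days 0 to 2 and above 0 in all 8 of day 4.

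The comparison of mat del with wt cells at matched time points gave no called member on any day. On each of the 6 days the test called 0 of 34 factors (0.00%), with 2 factors at an unadjusted p under 0.05 on day 0 and 0 on the other days. For Pou5f1 the mat del minus wt difference was 0.08 log2 units on day 3 (95% interval -0.77 to 0.92) and 0.77 on day 4 (-0.58 to 2.12), the 2 days that hold no library that stands apart. For Nanog it was 0.30 (-0.76 to 1.35) and -0.24 (-1.86 to 1.38), and for Sox2 0.00 (-1.03 to 1.03) and -0.33 (-1.93 to 1.27). All of these intervals but that of Pou5f1 on day 3 reached past a 2-fold difference (1 log2 unit) in at least 1 direction, so the levels cannot be called equal on either day.

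On the other days the Pou5f1 difference was set by the libraries that stand apart. It was -1.25 on day 0, -2.90 on day 1, 0.62 on day 2 and -0.99 on day 2.5 with all libraries, and 0.11 (95% interval -0.68 to 0.91), 0.45 (-0.83 to 1.72), -0.22 (-1.20 to 0.75) and 0.32 (-0.96 to 1.60) without them, a turned direction on each. For Nanog the differences were -0.74, -0.45, 0.02 and -0.67 with all libraries and -0.20, -0.83, -0.15 and -0.19 without. For Sox2 they were -0.88, 0.03, 0.15 and -0.74, and -0.27, -0.35, -0.25 and -0.58 without. Over all 34 factors the median difference on day 0 was -0.65 with all libraries and -0.16 without replicate 3. In that library 32 of the 34 factors lay lower than in the other mat del replicates of day 0. Among the members, Sox2 on day 0 was the sole case in which the genotypes did not overlap: the 3 mat del libraries, at 6.60, 6.73 and 4.84, lay below the lowest wt library at 6.83. How many of the 34 factors did not overlap is not given here. The exact permutation p was 0.0286, the smallest that 4 against 3 can give, but the limma adjusted p was 0.574. Without replicate 3 the Sox2 difference was -0.27 (95% interval -0.83 to 0.29, exact p = 0.0667, the smallest that 4 against 2 can give).

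**Figure D4:**
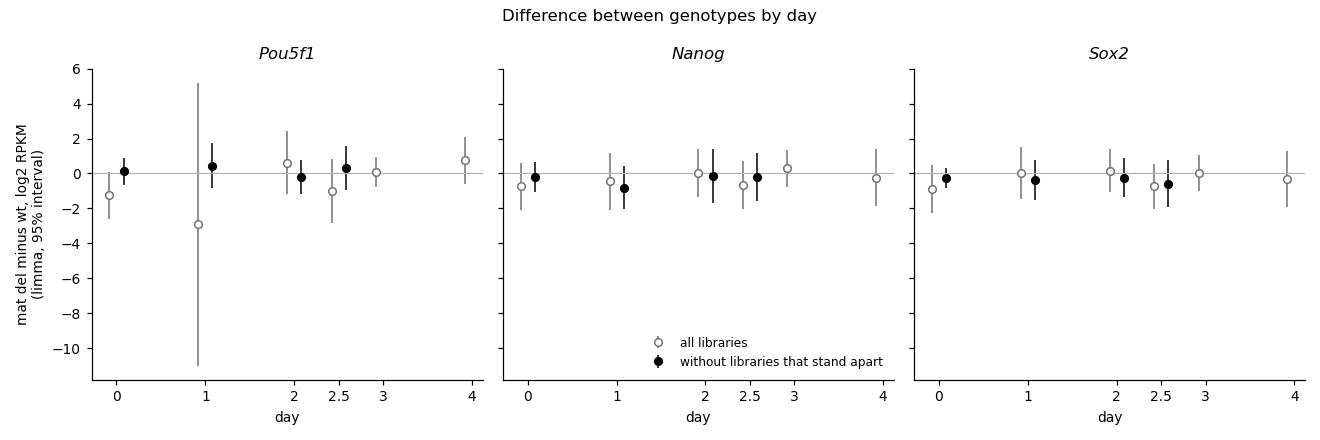
Difference between genotypes (mat del minus wt, log2 RPKM, y axis) by day (x axis) for each member, with 95% intervals from limma; open points use all libraries and filled points leave out those that stand apart, on the 4 days that have any. All intervals include 0, and the widest, for Pou5f1 on day 1, narrows when mat del day 1 replicate 4 is left out.

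No difference between genotypes in the changes between days passed the test of the difference itself. The limma interaction term called 0 of 34 factors (0.00%) from day 0 to 2, from day 2 to 2.5, from day 2.5 to 4 and from day 0 to 4, with 0 at an unadjusted p under 0.05 in each. For the Nanog rise from day 2 to 2.5 the mat del change minus the wt change was -0.69 (SE 0.88, adjusted p = 0.978), and -0.04 (95% interval -2.08 to 1.99) without the libraries that stand apart. For the Pou5f1 loss from day 2.5 to 4 it was 1.76 (SE 1.14, adjusted p = 0.962) and 0.44 (95% interval -1.33 to 2.22). For Sox2 from day 0 to 4 it was 0.54 (SE 0.96, adjusted p = 0.772) and -0.06 (95% interval -2.03 to 1.91). A call in wt and none in mat del cells therefore does not show a difference between them, and these intervals do not show that the changes were equal.

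Across the 45 course libraries the factors most like Pou5f1 in log2 RPKM were Pecam1 (Pearson r = 0.85), Tdgf1 (0.85) and Fbxo15 (0.83), and the least like was Wnt5a (-0.20). These values share the 4 libraries that stand apart: over the other 41, Utf1 (0.91), Gdf3 (0.88) and Klf2 (0.83) led and Wnt5a was at -0.76. Nanog was most like Sall4 (0.74), Tfcp2l1 (0.64) and Klf2 (0.64) over 45 libraries, and least like Dkk1 (-0.29). Over the 12 group means Nanog was most like Sall4 (0.88), Esrrb (0.85) and Klf2 (0.81). Sox2 was most like Gdf3 (0.87), Klf2 (0.85) and Zfp42 (0.80) over 45 libraries, least like Fgf8 (-0.71), and over group means most like Utf1 (0.97), Dppa3 (0.96) and Gdf3 (0.96). The group means also hold the 4 libraries that stand apart. Over the other 41, Nanog was most like Sall4 (0.75), Esrrb (0.70) and Klf2 (0.64). Over the same 41, Tdgf1 (0.91), Pecam1 (0.89) and Gdf3 (0.87) led for Sox2, so the order for each member depended on these libraries. Sall4 encodes a zinc finger partner of the core factors, Esrrb and Klf2 encode naive factors, and Utf1 and Gdf3 are known targets of the network. Libraries of a day share their medium and some share a line, so these are descriptions.

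In 2i + LIF the 3 members were among the strongly expressed genes and did not pass the test between genotypes. Total counts ran from 27526359 to 126716460 per line, and counts below are scaled to library size as CPM, with TMM factors. Pou5f1 read 850, 776 and 1060 CPM in wt lines 1 to 3 and 864, 776 and 735 in mat del lines 1 to 3. Nanog read 895, 780 and 681 CPM in wt and 816, 814 and 865 in mat del lines. Sox2 read 458, 463 and 383 CPM in wt and 455, 473 and 358 in mat del lines. The genotypes overlapped for all 3 genes. Per length the wt means were 398 ± 65.4 RPKM for Pou5f1, 350.2 ± 47.9 for Nanog and 211 ± 21.8 for Sox2 (SD, n = 3), so Nanog stood close to Pou5f1 here, with a log2 ratio between -0.63 and 0.24 over the 6 lines. These RPKM values were made here from counts and are scaled separately from the course.

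edgeR called 0 of 17696 genes between genotypes (0.00%), with 397 at an unadjusted p under 0.05, while DESeq2 called 0 and edgeR's exact test 2. The log2 fold change, mat del over wt, was -0.18 for Pou5f1 (SE 0.14, adjusted p = 0.992, 95% interval as a fold 0.71 to 1.11), 0.08 for Nanog (SE 0.12, adjusted p = 0.992, 0.87 to 1.29) and -0.02 for Sox2 (SE 0.14, adjusted p = 0.997, 0.79 to 1.23). Smchd1 itself, the check of the labels, read 107, 124 and 119 CPM in wt and 63.7, 72.0 and 90.7 in mat del lines, without overlap. Its log2 fold change was -0.63 (SE 0.14, unadjusted p = 0.00231, adjusted p = 0.992). Of the 17 other pluripotency factors, 18 partners and targets, 12 of 13 POU and SOX genes and 10 of 14 differentiation factors that were tested, none passed in either direction, and the list medians were 0.02, 0.02, -0.07 and 0.07 log2 units, beside -0.01 over all genes.

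**Figure D5:**
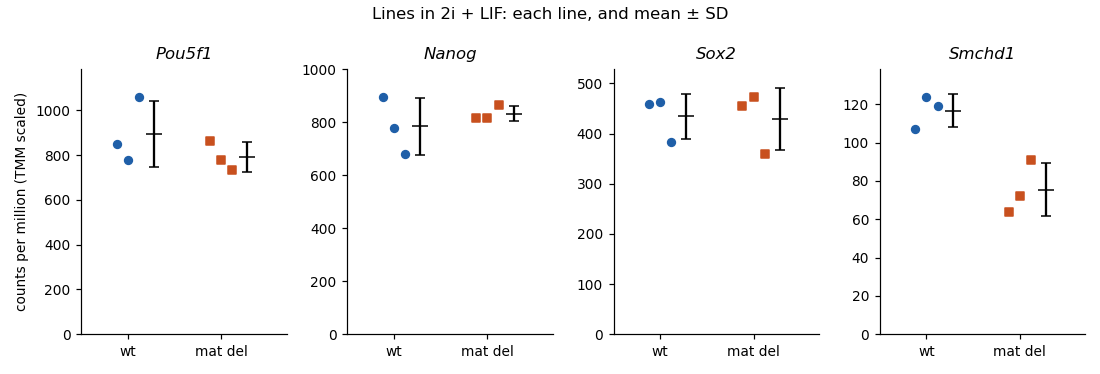
TMM-scaled CPM (y axis, from 0) of the members and of Smchd1 in 3 wt and 3 mat del lines in 2i + LIF, each line as a point with mean ± SD beside it. The genotypes overlap for Pou5f1, Nanog and Sox2 and are apart for Smchd1.

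Within those lists the largest values belonged to Sall4 (0.36) and Klf4 (0.31) on the higher side and Nr0b1 (-0.29) and Zfp42 (-0.19) on the lower side of the pluripotency factors. Among partners and targets they were Dppa2 (0.41) and Prdm14 (0.35), and Lefty1 (-0.69), a secreted Nodal inhibitor, and Lin28a (-0.55), an RNA-binding protein. In the POU and SOX family Sox1 (0.47) and Sox21 (0.10), and Sox17 (-0.61) and Sox11 (-0.48), were at the ends, all at or below 1.21 RPKM on average. Among differentiation factors they were Wnt3a (0.77) and T (0.28), and Wnt5b (-1.03) and Nkx1-2 (-0.92). These too were low: Wnt3a averaged 0.040 RPKM in wt and 0.080 in mat del lines, T 3.14 and 3.81, Wnt5b 0.97 and 0.47, and Nkx1-2 1.65 and 0.87.

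The summed markers of other cells lay below the naive sum in all 6 lines. Single markers still reached several RPKM. Dnmt3b averaged 10.7 RPKM in wt and 6.60 in mat del lines, Otx2 7.28 and 7.75, and Eomes 4.35 and 4.59. The 9 naive markers summed to between 559 and 640 RPKM in wt and between 638 and 639 in mat del lines, and the 6 primed or formative markers to 22.8 to 29.0 and 19.9 to 22.7. The 7 primitive endoderm markers summed to 1.88 to 2.36 RPKM in wt and 2.12 to 2.54 in mat del lines, the 6 trophectoderm markers to 7.37 to 10.5 and 6.79 to 12.9, the 6 fibroblast markers to 1.44 to 2.94 and 1.56 to 1.84, and the 4 markers of 2-cell-like cells to at most 0.18. All 9 naive and 6 primed or formative markers were tested, and 6 of 7, 3 of 6, 3 of 6 and 1 of 4 in the other lists in this order, and none of those tested passed.

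Reads at 2 of the members meet other annotated genes. Sox2 lies within Sox2ot, a long noncoding gene at chr3:34104270-34682619 on the same strand, whose exons do not touch Sox2 and which read 2.75 CPM in wt and 2.45 in mat del lines, against 435 and 429 for Sox2. The antisense gene Gm19553 covers the last exons of Pou5f1 and read 181 CPM in wt and 151 in mat del lines, beside 895 and 792 for Pou5f1. Per length the 2 genes were close, at 366 RPKM in wt and 305 in mat del lines for Gm19553, beside 398 and 352 for Pou5f1. The labels name stranded and non-stranded kits, so how far reads of this pair were mixed was not tested.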

How the data were processed

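RNA was measured in 51 mESC libraries, 6 lines in 2i + LIF and 45 libraries of the differentiation course. Per the labels and the study's methods, the authors trimmed reads with Trim Galore 0.4.4, aligned them with HISAT2 2.0.5 to GRCm38.p6 and deposited raw counts per gene and log2 RPKM values per library from SeqMonk, which scales by library size and transcript length. Depth of the course libraries is not given by log2 RPKM; that of the 2i lines is their total counts. The study states that its lines in 2i were sequenced with paired ends and the course with single ends.

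Groups came from the labels. Counts of the 2i lines were tested with edgeR 4.0.16 (quasi-likelihood, TMM, filterByExpr), and DESeq2 1.42.0 as an alternative; log2 RPKM of all 34 factors were tested with limma 3.58.1 with no offset, over the libraries of each contrast, with Benjamini-Hochberg adjustment over all genes or factors tested and a threshold of 0.05, with exact two-sided permutation tests beside them. Adjusted p-values in the text are from these tools. Exon lengths came from GENCODE. Tests were checked on simulated data. Other settings were an offset of 1, a filter at mean log2 RPKM above 0, centring, 1 shared fit, line 1 (by the labels) alone, a replicate block and leaving out libraries; leaving out the 4 libraries that stand apart was chosen after seeing the data. Replicate numbers were checked by correlating deviations from group means: in the 2i lines all 3 pairs had r between 0.17 and 0.38 and between genotypes on day 0 all 3 pairs had r between 0.33 and 0.67, as had those of mat del days 2 and 2.5 (0.31 to 0.48), so these pass as paired and the block changed no call there; the other 12 course comparisons do not. Gene members and lists were chosen with earlier results of these data known. Named genes were the members, Smchd1, up to 2 genes per direction in each list and the genes most like a member; Ctnnb1, Gm19553, Magel2 and Gemin5 were named after their values were seen. No deposited fold changes or p-values were used.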

Additional observations from a re-analysis of the deposited data

Results flagged for a closer look

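Outlying libraries were looked for in the 9 course groups of 4 libraries, for 3 members, which makes 27 tests by Dixon's rule, of which chance flags about 1 in 20; 4 were flagged. Pou5f1 was at -4.63 log2 RPKM in mat del day 1 replicate 4, where the other replicates read 8.23 to 9.35, and at 4.88 in wt day 2 replicate 3, where the others read 8.01 to 8.56. Both belong to the 4 libraries that stand apart. Nanog was at 2.21 in mat del day 2 replicate 1, below the 3.65 to 3.94 of the others, a library in which Pou5f1 was the highest of its group. Nanog was at 6.43 in wt day 2.5 replicate 2, above the 4.86 to 4.88 of the others, and without that library the wt rise from day 2 to 2.5 was 1.47 log2 units and no longer passed the test.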

How the results depend on the processing

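In all, 70 results were recomputed: 66 of the course and 4 of the 2i lines. With the replicate block, all 70 kept direction and side of the threshold (for the Nanog rise in wt cells 1.86, adjusted p = 0.00652), and the block changed no call. No counting error can be given for the course, whose depth is unknown. Values are log2 differences; causes of changes were not tested unless the setting's own construction shows them.

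Without the libraries that stand apart, mat del minus wt turned for Pou5f1 on days 0, 1, 2 and 2.5 (0.11, 0.45, -0.22, 0.32), for Sox2 on days 1 and 2 (-0.35, -0.25) and for Nanog on day 2 (-0.15). Pou5f1 changes turned from day 2 to 2.5 in wt (-0.22) and mat del (0.32) and from day 0 to 2 in mat del (-0.83). The Nanog rise in wt lost its call (1.69), while Nanog from day 0 to 2 (-2.42) and Pou5f1 from day 2.5 to 4 (-3.02) and 0 to 4 (-3.52) gained one in mat del. Interactions turned for Pou5f1 from day 0 to 2 (-0.34) and 2 to 2.5 (0.55), for Nanog from day 2.5 to 4 (-0.049) and 0 to 4 (-0.040) and for Sox2 from day 0 to 4 (-0.062). Ratios turned for Nanog to Pou5f1 on days 0, 1, 2 and 2.5 (-0.31, -1.27, 0.078, -0.51) and Sox2 to Pou5f1 on days 0, 1 and 2.5 (-0.39, -0.80, -0.91).

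With centred libraries, wt changes from day 0 to 2 became 0.72 (Pou5f1), -0.58 (Nanog, call lost) and 0.11 (Sox2), and from day 2 to 2.5 -1.27, -0.036 and -2.30 (Sox2, call gained); Nanog from day 2.5 to 4 lost its call (-1.50). In mat del, Sox2 from day 0 to 2 turned (0.68), and day 2 to 2.5 gave -2.92 (Pou5f1) and -3.24 (Sox2), both gained, and -0.76 (Nanog, turned). Nanog on day 1 turned (0.96), as did the interactions from day 0 to 4 of Nanog (-0.28) and Sox2 (-0.23). In line 1 alone, differences turned on day 1 for Pou5f1 (0.10) and Sox2 (-0.19), on day 2 for Nanog (-0.069) and Sox2 (-0.022) and on day 3 for Pou5f1 (-0.16) and Nanog (-0.026), as did ratios to Pou5f1 on day 1 (Nanog -0.89, Sox2 -0.29) and day 3 (Sox2 0.27), and the Nanog rise in wt lost its call (2.05). In 1 fit over all groups Pou5f1 in wt from day 2.5 to 4 lost its call (-3.46), and Nanog (-2.08) and Sox2 (-2.29) in mat del gained one. With log2(RPKM + 1), Sox2 in mat del from day 2 to 2.5 (-1.25) and Pou5f1 from day 0 to 4 (-2.14) gained a call, as did the latter with factors above 0 only (-2.16). The edgeR exact test called 2 genes in 2i, Magel2 and Gemin5.

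Leaving out 1 library at a time, 36 of the 70 results kept direction and side. The others ranged as follows. Genotype differences ran on day 0 from -2.05 to 0.11 for Pou5f1, and on day 1 from -4.21 to 0.45 for Pou5f1 and -0.35 to 0.23 for Sox2. On day 2 they ran from -0.22 to 1.00 for Pou5f1, -0.30 to 0.43 for Nanog and -0.25 to 0.55 for Sox2, and on day 2.5 from -1.76 to 0.32 for Pou5f1. On day 3 they ran from -0.10 to 0.23 for Pou5f1 and -0.25 to 0.29 for Sox2, and on day 4 from -0.71 to 0.35 for Nanog and -0.74 to 0.28 for Sox2. Changes in wt from day 2 to 2.5 ran from 1.47 to 2.27 for Nanog and -0.22 to 1.00 for Pou5f1. In mat del they ran from -2.42 to -1.39 for Nanog and -0.83 to 1.34 for Pou5f1 (day 0 to 2), -1.76 to 0.32 for Pou5f1 (day 2 to 2.5), -3.02 to -0.93 for Pou5f1 and -2.69 to -1.68 for Sox2 (day 2.5 to 4), and -3.52 to -1.35 for Pou5f1 and -3.33 to -2.20 for Nanog (day 0 to 4). Leaving out mat del day 4 replicate 2 gave calls to Sox2 from day 2.5 to 4 (-2.69) and Pou5f1 from day 0 to 4 (-1.98). Interactions ran from -0.049 to 1.02 for Nanog (day 2.5 to 4), -0.040 to 1.09 for Nanog and -0.062 to 1.16 for Sox2 (day 0 to 4). Ratios of Nanog to Pou5f1 ran from -0.31 to 1.02, -1.27 to 3.95, -1.30 to 0.078, -0.51 to 1.04 and -0.0025 to 0.44 on days 0, 1, 2, 2.5 and 3, and of Sox2 to Pou5f1 from -0.39 to 0.91, -0.80 to 4.44, -0.91 to 1.14 and -0.47 to 0.35 on days 0, 1, 2.5 and 3. In 2i, Nanog ran from -0.010 to 0.20 and Sox2 from -0.10 to 0.094.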
